A study of Mus musculus with 36 samples.

Results

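Immunoglobulin heavy chain variable segments, the Ighv genes, were described in RNA sequencing of the mouse cochlea, the coiled part of the inner ear that senses sound. The segments were taken as every gene of the deposited count table whose GENCODE M21 symbol starts with Ighv and whose mean count over the 36 libraries was at least 10. This gave 91 segments of the 108 Ighv symbols in the table, of 185 in the annotation and of 39017 genes in the table. The tissue came from CBA/Sca mice aged 12 weeks that had been either sham-operated or adrenalectomized (ADX), a surgery that takes away the adrenal source of glucocorticoids. Each status had 3 libraries at each of 6 circadian times (CT) spaced from CT04 to CT24, so 18 sham and 18 ADX libraries. The sham libraries held 18999408 to 28995197 counts and the ADX libraries 20351081 to 28947793. The sham-operated mice are the control, and all groups share strain, age and tissue.

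A B cell builds the variable part of its antibody heavy chain by joining a V, a D and a J segment in its DNA. The V segment holds most of the antigen-binding domain, and the enzymes Rag1 and Rag2 cut the DNA for the joining in developing B cells. Each mature B cell then transcribes the joined V segment with a constant region such as Ighm, and a plasma cell, the antibody-secreting descendant, does so at a very high level. In a bulk tissue, Ighv transcripts are therefore known as a mark of B lineage cells and of the variety of their receptors. The segments of the reference are those of C57BL/6, while CBA mice are known to carry another form of the locus.

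All 91 segments lie on the minus strand of chromosome 12, within chr12:113574245-115981134 (GRCm38), a span of 2.41 Mb. The annotation calls 90 of them V genes and 1, Ighv2-1, a pseudogene, and they belong to 15 families. Mean counts ran from 10.6 to 277.3 per library with a median of 38.1, and 0 segments had a count of 0 in any library. Just inside the threshold were Ighv12-3 and Ighv8-9, with mean counts of 10.6 and 10.9, and just outside it Ighv1-85 and Ighv8-13, with 9.83 and 8.58. All 91 also passed the filter on low counts, as did 100 of the 108 Ighv symbols. A mean count of 10 carries a counting error of 31.6%.

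Levels differed widely between the segments. Per kb of gene length, the mean level over the 36 libraries had a median of 4.4 CPM, the count scaled to library size, and spanned 25.9-fold. Ighv1-82 at 32.2 CPM per kb, Ighv1-16 at 31.7, Ighv7-3 at 31.2, Ighv2-9 at 29.6 and Ighv3-6 at 26.4 were highest. The lengths are those deposited with the counts. For Ighv1-82 this is 294 bases, where its annotated transcript has 386, so its rank depends on the length used. The neighbours in that order lay within the spread of their libraries, for example Ighv1-82 with 7.84 ± 2.58 CPM and Ighv1-16 with 7.28 ± 1.84 CPM in sham (SD, n = 18). Ighv5-16, Ighv2-9-1, Ighv1-53, Ighv5-17 and Ighv5-9 came next, and these 10 segments held 36.8% of the summed Ighv level. The lowest were Ighv12-3 at 1.24 CPM per kb, Ighv1-58, Ighv1-22, Ighv7-4 and Ighv11-2 at 1.41. Ighv12-3 and Ighv11-2 are segments known from B-1 cells, an innate-like B cell lineage.

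The counts of neighbouring segments were not independent of each other. Ighv9-1, Ighv9-2 and Ighv9-3 are separate genes, within chr12:114093928-114141122, whose annotated sequences differ, as their last 300 bases show at the end of the paragraph. All of their 100-base stretches, the read length of the study, were unique among the annotated Ighv transcripts, and Ighv9-1 was 95.7% identical to Ighv9-2. Yet the deposited count of Ighv9-1 equalled that of Ighv9-2 in 26 of 36 libraries, with a largest difference of 4 counts, and Ighv9-2 equalled Ighv9-3 in 27 of 36, with a largest difference of 2. The sequences are the GENCODE M21 transcripts (GRCm38, minus strand, 5′ to 3′), and capitals mark the codon of the second conserved cysteine and the bases after it, where the D segment is joined.
Ighv9-1: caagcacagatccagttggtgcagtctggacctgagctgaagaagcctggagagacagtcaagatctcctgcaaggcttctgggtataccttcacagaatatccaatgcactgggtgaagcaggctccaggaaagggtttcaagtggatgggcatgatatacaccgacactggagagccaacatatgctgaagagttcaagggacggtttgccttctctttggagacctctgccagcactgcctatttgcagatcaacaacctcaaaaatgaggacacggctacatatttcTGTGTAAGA
Ighv9-2: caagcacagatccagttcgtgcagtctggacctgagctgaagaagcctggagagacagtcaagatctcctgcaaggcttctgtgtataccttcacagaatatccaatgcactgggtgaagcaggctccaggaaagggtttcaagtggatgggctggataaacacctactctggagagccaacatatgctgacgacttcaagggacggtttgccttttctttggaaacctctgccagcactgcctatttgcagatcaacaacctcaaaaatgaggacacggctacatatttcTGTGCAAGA
Ighv9-3: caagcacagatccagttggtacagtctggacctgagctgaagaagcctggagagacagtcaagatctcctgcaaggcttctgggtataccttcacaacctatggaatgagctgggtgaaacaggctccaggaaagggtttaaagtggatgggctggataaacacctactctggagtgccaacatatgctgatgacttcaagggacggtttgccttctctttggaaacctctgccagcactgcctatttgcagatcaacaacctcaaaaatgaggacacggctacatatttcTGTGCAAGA

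The same pattern held at features shorter than a read. The 21 D segments of the table, 10 to 29 bases long, had mean counts between 21.6 and 31.7, and the D segments Ighd5-1 and Gm16968 had equal counts in 36 of 36 libraries. The pseudogene Ighv2-1, the segment nearest to them, had a mean count of 22.4 against 21.6 for Gm16968, and the counts were equal in 14 libraries. The miRNA gene Mir6388 between Ighv8-12 and Ighv1-71 had the count of Ighv1-71 in 18 of 36 libraries. On the opposite strand of the locus, 4 of 5 genes had mean counts of 0.667 to 1.86, and the fifth was Adam6b with 22.1.

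A read counted for every same-strand feature that the gap of its alignment crosses would give such equal counts, but the alignments were not used here and this was not tested. A read that crosses a segment and both its neighbours would add to all 3 counts. The count above the lower of the 2 nearest same-strand features was therefore taken as the part that reads crossing both cannot make up. It came to 64.0% of the summed Ighv counts and to at least 50% in 46 of the 91 segments, between 10 and 50% in 23 and under 10% in 22. It was 91% for Ighv7-3, 87.7% for Ighv1-16, 89.7% for Ighv1-82 and 95.1% for Ighv3-6. It was 0.447% for Ighv9-2, 4.33% for Ighv2-1 and 0.0% for Ighv11-2. Of the 10 highest segments per kb, 9 were also among the 10 highest by this measure.

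**Figure D1:**
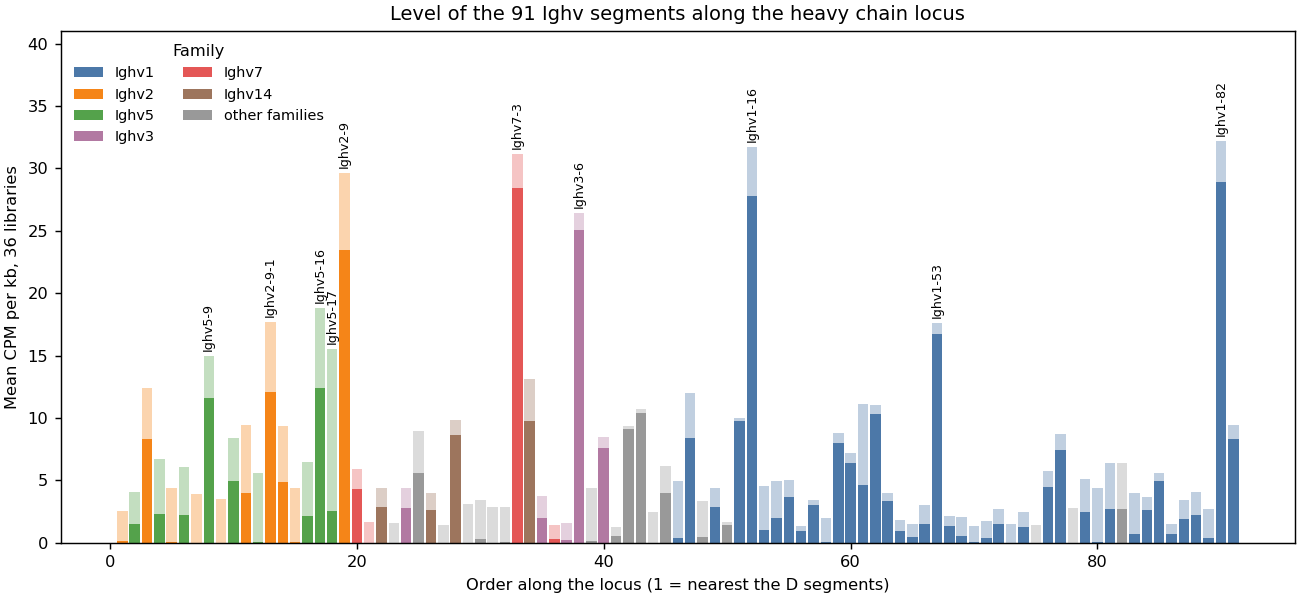
Mean level in CPM per kb over 36 libraries (y axis) of the 91 segments in their order along the locus, starting next to the D segments (x axis), coloured by family. Full bars are the deposited counts and the solid lower part is the count above the lower neighbour; the 10 highest segments are named, and their solid part is most of the bar for all but Ighv5-17 (16.4%).

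By family, the 41 Ighv1 segments, the largest group, held 38.7 ± 2.42% of the summed Ighv level in sham and 40.0 ± 4.06% in ADX (SD, n = 18 each). The 10 Ighv2 segments held 16% with an SD of 1.94 in sham and 15.5 ± 1.74% in ADX, and the 9 Ighv5 segments 13.9 ± 3.33% and 14.2 ± 3.39%. The 4 Ighv7 segments held 6.23 ± 1.07% and 7.07 ± 1.25%. For all 15 families the mean share in ADX was within 1 SD of that in sham; the difference was not tested. The 31 segments nearest to the D segments held 39.0 ± 3.14% in sham and the farthest 30 held 23.4 ± 2.42%, and in ADX 37.9 ± 4.54% and 25.2 ± 3.9%. All of these shares are of the deposited counts, with any counts that neighbours share left in.

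Segments resemble each other, which bears on how reads could be assigned. Of the 91, 61 had every 100-base stretch unique among the annotated Ighv transcripts and 49 had a closest segment of at least 95% identity. Ighv1-71 and Ighv1-62-2 differed by 1 base over 359, and 3.1% and 9.7% of their stretches were unique, so their counts are uncertain. The stretch TGTGCAAGA, searched on the coding strand in the last 25 bases of each segment, was present in 53 of the 91 segments (58.2%) and in 31 of the 92 other annotated Ighv sequences (33.7%). The annotation holds 70 Ighv pseudogenes, of which 1 is among the 91, so these sets differ in gene type. The shares were not compared within gene types or families.

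The summed level of the 91 segments was compared between sham and ADX libraries. In sham it was 190 ± 33.6 CPM (SD, n = 18), with 122 in the lowest library, a median of 194 and 237 in the highest. In ADX it was 240 ± 43.6 CPM, with 160, 236 and 312. The groups overlapped: 15 of 18 ADX libraries were above the sham median, 8 were above the highest sham library, and 4 sham libraries were below the lowest ADX library. Summed over the counts above the lower neighbour, sham libraries held 122 ± 20.8 CPM and ADX libraries 153 ± 26.6 CPM. In a bulk sample, fewer B lineage cells in sham and less Ighv RNA per cell in sham cannot be told apart.

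**Figure D2:**
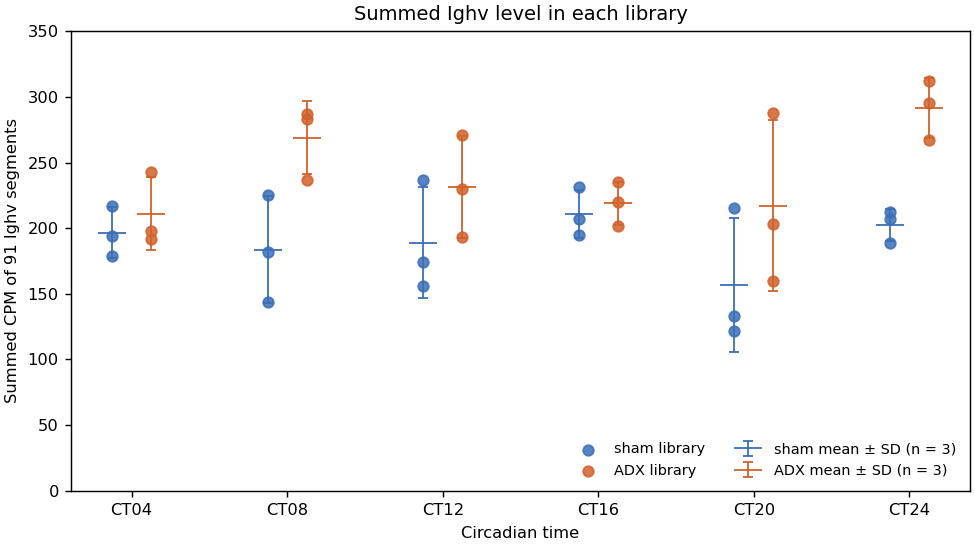
Summed CPM of the 91 segments (y axis) in each library by circadian time (x axis), sham in blue and ADX in orange, with the mean ± SD of 3 libraries as bars. The ADX mean was the higher at each time, by least at CT16 (219 against 211) and by most at CT24 (291 against 203). The SDs exceed the gap at CT16 (16.6 and 18.2) and at CT04 (211 against 197, SDs 28.2 and 18.8). They are about the size of the gap at CT12 (231 against 189, SDs 39.1 and 42.8) and CT20 (217 against 157, SDs 65.2 and 50.5).

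The lowest libraries were sham CT20 replicate 2 with 122 CPM and replicate 3 with 133 CPM, and the highest was ADX CT24 replicate 1 with 312 CPM. Of the 91 segments, 79 had their lowest library in sham and 69 had their highest in ADX. Of the 79, 28 were lowest in sham CT20 replicate 2, 15 in sham CT12 replicate 1 and 11 in sham CT08 replicate 1. Such counts are not given for all tested genes, so how unusual they are is not known. The ratio of the summed Ighv level to Ighm, the IgM constant gene, was 0.22 ± 0.0386 in sham and 0.221 ± 0.0339 in ADX (SD, n = 18 each). The spread over segments differed by less than the spread between libraries: the number of equally used segments that would give the same Shannon diversity was 60.4 ± 2.83 in sham and 59.2 ± 3.81 in ADX. It was taken from the deposited counts, where neighbours with nearly equal counts, such as Ighv9-1 to Ighv9-3, enter as separate segments. It is therefore not a count of the segments that B cells used.

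Over the mean of the 6 times, 89 of the 91 segments had a higher fitted level in ADX, with a median log2 fold change of 0.31 and a range from -0.09 to 0.85. Over all 22556 genes tested, 50.7% were higher and the median was 0.0. With edgeR's quasi-likelihood test and Benjamini-Hochberg adjusted p-values over all genes (threshold 0.05), 5 segments passed, all higher in ADX. Of all tested genes 0.346% were called higher and 0.372% lower, 0.718% in all. At an unadjusted p under 0.05, 38 segments were higher and 0 were lower, against 15.6% of all tested genes in either direction. Because some neighbouring segments have equal or nearly equal counts and all 91 come from the same 36 libraries, the 89 are not 89 separate observations. The second reason remains with the counts above the lower neighbour. With the counts above the lower neighbour, 2 segments were called, where 150 of all tested genes were. Of the 56 segments that held a mean of at least 10 such counts, 54 were higher, with a median of 0.30, the same median as with their deposited counts. Of the 27 with fewer, 13 were higher with a median of -0.05, and the other 8 were at 0 in every library and have no fold change.

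**Figure D3:**
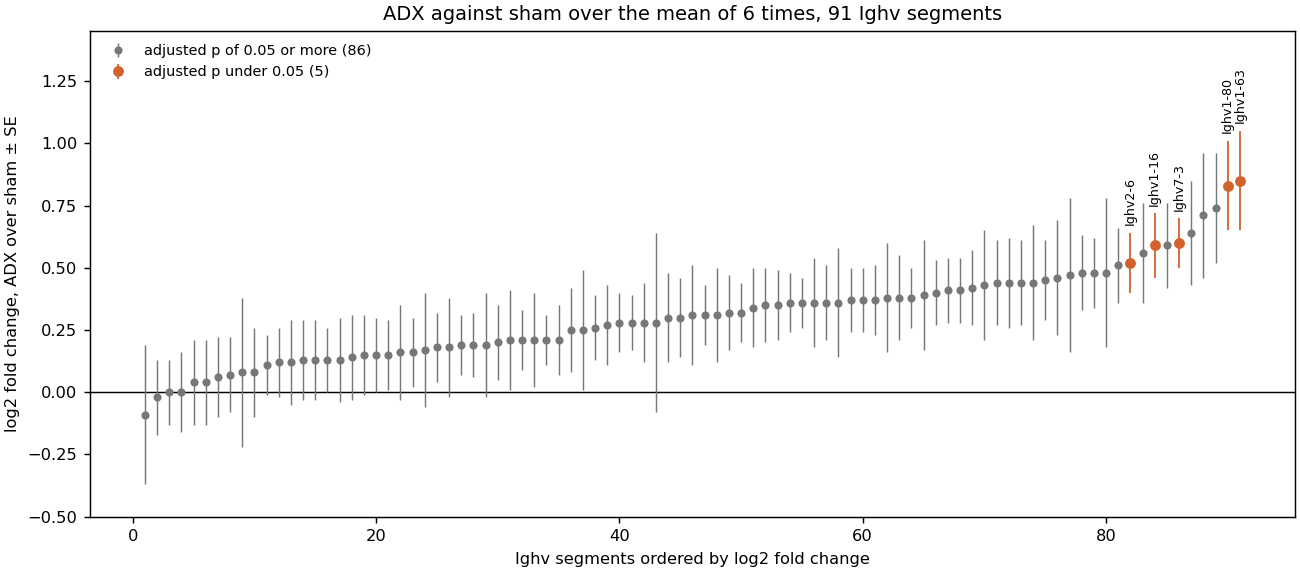
Log2 fold change of ADX over sham ± SE (y axis) of the 91 segments ordered by its size (x axis), from edgeR over the mean of 6 times. The 5 segments past an adjusted p of 0.05 are named and orange; 89 of 91 points lie above 0.

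The 5 segments that passed are shown by their C57BL/6 reference sequence, since they are the ones called between the groups. Each is the last 300 bases (Ighv1-16, of 294 bases, whole) of the GENCODE M21 transcript on the minus strand of GRCm38, 5′ to 3′, with capitals from the codon of the second conserved cysteine to the end. They come from 3 families and lie apart in the locus: Ighv2-6 at chr12:113716670-113717103, Ighv7-3 at chr12:114153180-114153644, Ighv1-16 at chr12:114665872-114666165, Ighv1-63 at chr12:115495625-115496058 and Ighv1-80 at chr12:115912344-115912776.
Ighv7-3: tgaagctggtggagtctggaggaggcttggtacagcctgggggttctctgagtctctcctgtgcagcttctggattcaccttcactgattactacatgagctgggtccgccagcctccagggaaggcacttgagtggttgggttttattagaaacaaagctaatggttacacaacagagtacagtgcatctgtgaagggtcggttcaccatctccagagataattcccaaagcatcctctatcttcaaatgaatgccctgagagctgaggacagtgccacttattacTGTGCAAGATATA
Ighv1-16: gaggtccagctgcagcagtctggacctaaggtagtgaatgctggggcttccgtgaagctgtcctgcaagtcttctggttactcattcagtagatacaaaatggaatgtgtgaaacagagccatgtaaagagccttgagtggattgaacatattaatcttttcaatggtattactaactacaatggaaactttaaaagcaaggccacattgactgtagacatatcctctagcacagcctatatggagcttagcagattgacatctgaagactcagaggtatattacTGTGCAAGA
Ighv2-6: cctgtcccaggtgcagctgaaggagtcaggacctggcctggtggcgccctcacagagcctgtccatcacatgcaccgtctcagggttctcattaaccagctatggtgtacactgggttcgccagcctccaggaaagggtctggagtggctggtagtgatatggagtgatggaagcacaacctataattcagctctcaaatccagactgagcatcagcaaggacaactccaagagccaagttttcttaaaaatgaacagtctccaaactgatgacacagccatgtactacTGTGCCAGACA
Ighv1-63: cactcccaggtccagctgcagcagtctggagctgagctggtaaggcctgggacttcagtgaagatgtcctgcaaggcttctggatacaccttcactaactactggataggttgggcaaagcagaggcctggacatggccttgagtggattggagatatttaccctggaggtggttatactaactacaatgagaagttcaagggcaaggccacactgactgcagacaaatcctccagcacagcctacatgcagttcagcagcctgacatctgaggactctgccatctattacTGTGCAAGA
Ighv1-80: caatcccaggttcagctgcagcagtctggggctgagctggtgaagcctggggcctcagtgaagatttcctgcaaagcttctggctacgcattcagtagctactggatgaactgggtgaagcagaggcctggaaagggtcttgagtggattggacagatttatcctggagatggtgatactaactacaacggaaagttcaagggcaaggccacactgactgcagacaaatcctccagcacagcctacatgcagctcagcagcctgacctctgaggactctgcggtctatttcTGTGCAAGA

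Ighv7-3, the segment with the highest mean count, was at 4.70, 8.17 and 12 CPM in the lowest, median and highest sham library and at 7.81, 12.8 and 18.7 CPM in ADX. Of 18 ADX libraries, 17 were above the sham median and 10 above the highest sham library. Its log2 fold change was 0.60 ± 0.10 (SE), from 8.82 ± 2.29 to 13.4 ± 3.26 CPM (SD, n = 18 each), with an adjusted p of 0.00745 in edgeR's quasi-likelihood test. Its difference was positive at all 6 times, and its call was kept in all 36 fits that left out 1 library (largest adjusted p = 0.0207 by edgeR). With its counts above the lower neighbour the log2 fold change was 0.65 with an adjusted p of 0.00604.

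Ighv1-16, likewise among the 3 highest segments per kb, was at 3.81, 7.48 and 11 CPM in sham and at 7.65, 9.60 and 32.7 CPM in ADX. All 18 ADX libraries were above the sham median and 4 were above the highest sham library. The log2 fold change was 0.59 ± 0.13 (adjusted p = 0.0347, edgeR), and it was 0.65 with an adjusted p of 0.0336 in edgeR with the counts above the lower neighbour. At CT24 the ADX libraries held 32.7, 16.7 and 9.17 CPM and the sham libraries 4.96, 9.03 and 8.37 CPM, and 1 ADX library there was thus the highest of all 36. With 1 library left out at a time, the call was lost without that library, ADX CT24 replicate 1. It was also lost without ADX CT04 replicate 3, ADX CT12 replicate 3 or ADX CT16 replicate 2. Among sham libraries it was lost without CT04 replicate 2, CT08 replicate 3, CT12 replicate 3 or CT20 replicate 3.

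Ighv2-6 was at 1.34, 2.77 and 4.29 CPM in sham and at 2.69, 3.63 and 5.84 CPM in ADX. Of 18 ADX libraries, 17 were above the sham median. Its log2 fold change was 0.52 ± 0.12 (adjusted p = 0.0415, edgeR), and with its counts above the lower neighbour 0.70 with an adjusted p of 0.283. The call was kept in 18 of 36 fits that left out 1 library.

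Ighv1-80 was at 0.509, 1.04 and 1.63 CPM in sham and at 0.755, 1.62 and 5.86 CPM in ADX, with 8 ADX libraries above the highest sham library. Its log2 fold change was 0.83 ± 0.18 (adjusted p = 0.0343, edgeR) and the highest library was ADX CT08 replicate 1. Ighv1-63 was at 0.894, 1.41 and 2.07 CPM in sham and at 1.25, 1.98 and 9.33 CPM in ADX, with 8 ADX libraries above the highest sham library. Its log2 fold change was 0.85 ± 0.20 (adjusted p = 0.0429, edgeR), and ADX CT12 replicate 2 held the 9.33 CPM. With the counts above the lower neighbour the adjusted p by edgeR was 0.107 for Ighv1-80 and 0.0507 for Ighv1-63, and with 1 library left out at a time the calls were kept in 31 and 13 of 36 fits.

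**Figure D4:**
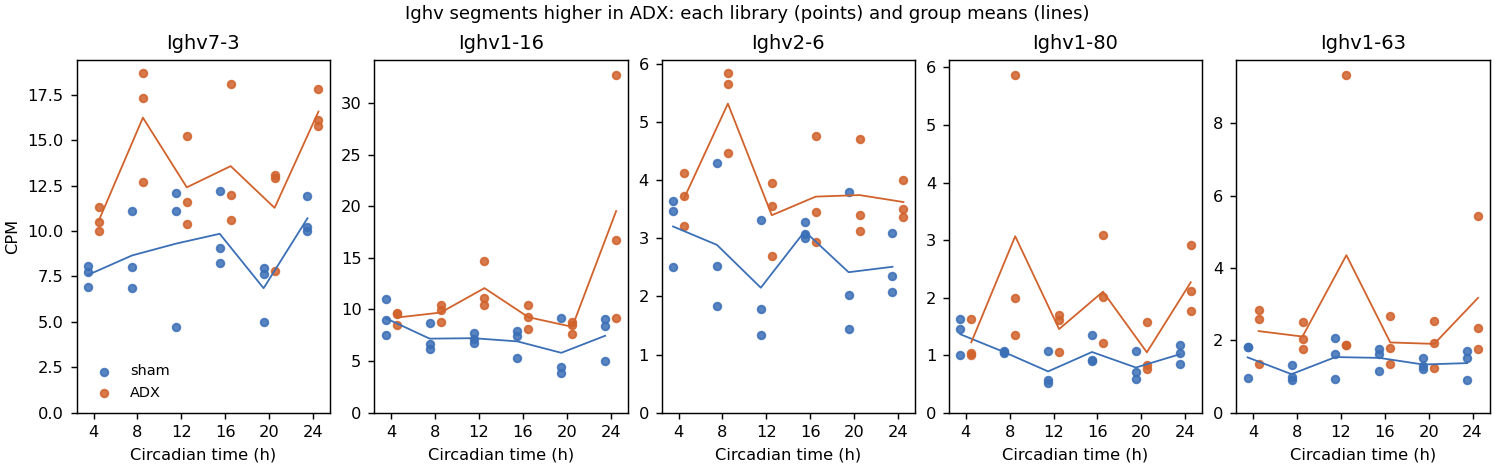
CPM (y axis) of the 5 segments called higher in ADX, in each library by circadian time (x axis), sham in blue and ADX in orange, with lines through the means of 3 libraries. The ADX mean was the higher at each time in all but Ighv1-80, where it was lower at CT04 (1.22 against 1.36). Single ADX libraries stand apart in Ighv1-16 (32.7), Ighv1-80 (5.86) and Ighv1-63 (9.33).

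The other segments gave smaller or more scattered differences. Ighv1-66 and Ighv1-81 had the next largest log2 fold changes among the named segments, 0.74 ± 0.22 with an adjusted p of 0.0976 and 0.71 ± 0.25 with 0.15 by edgeR, and neither passed. At the other end, Ighv1-18 was at -0.09 ± 0.28 and Ighv1-4 at -0.02 ± 0.15. The highest segment per kb of deposited length, Ighv1-82, was at 0.51 ± 0.15 with an adjusted p of 0.0904 by edgeR.

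By single time, the median log2 fold change of the 91 segments was 0.01 at CT04, 0.45 at CT08, 0.31 at CT12, -0.04 at CT16, 0.49 at CT20 and 0.60 at CT24. Positive values were found for 47, 80, 65, 39, 80 and 84 segments at these times. With 3 libraries against 3, 0 segments passed at any time in edgeR, where 0.0% of all tested genes passed at each time except 0.00443% at CT20. At an unadjusted p under 0.05 there were 0, 16, 12, 4, 15 and 25 higher segments at the 6 times and 4, 0, 0, 2, 0 and 1 lower. Over all tested genes, 9.3, 4.28, 5.41, 7.95, 7.49 and 5.74% had such a p in either direction, so the 4 segments at CT04 and the 6 at CT16 were no larger a share than that. DESeq2 called 1 segment, Ighv1-74 at CT20, where it called 0.776% of all tested genes. Whether the ADX difference varies between the times was tested with the 5-df interaction term, which called 0 segments and 0.0% of all genes in edgeR, with 10 segments and 4.83% of all genes at an unadjusted p under 0.05 (DESeq2 also called 0 segments).

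A 24 h rhythm was tested in each status with a cosine and a sine fitted by edgeR. In sham 0 of the 91 segments passed, where 3628 of all tested genes (16%) did, and in ADX 0 passed, where 9.4% did. At an unadjusted p under 0.05 there were 4 segments in sham, against 31.0% of all tested genes, and 10 in ADX, against 25.4%. The smallest adjusted p by edgeR were 0.0704 for Ighv7-1 and 0.0740 for Ighv6-3 in sham and 0.0714 for Ighv1-12 and 0.0717 for Ighv8-12 in ADX. DESeq2 called Ighv7-1 and Ighv6-3 in sham, where it called 18.4% of all genes, and Ighv8-12 in ADX, where it called 11.6%. For a difference in rhythm between ADX and sham, 0 segments and 0.0% of all genes passed in edgeR, with 5 segments and 3.57% of all genes at an unadjusted p under 0.05, and DESeq2 called 0 segments.

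The scatter between libraries was larger for these segments than for most genes. The biological coefficient of variation, the spread between libraries of 1 group beyond counting error, had a median of 28.1% over the segments, from 10.8 to 61.8%, against 8.3% over all tested genes. In 13 segments the highest library held at least 4 times the median library.

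The most extreme was Ighv1-12, with 30.3 CPM (695 counts) in ADX CT08 replicate 2, where the next highest library held 5.82 CPM and the median was 1.86 CPM. Its neighbours Ighv1-9 and Ighv1-16 held 3 and 228 counts in that library, so 692 of its counts were above the lower neighbour. The light chain segment Igkv14-100 had its highest level in the same library, 29.8 CPM against 2.38 CPM in the second library. Ighv1-18 held 9.35 CPM in sham CT24 replicate 2, 7.96 times its median, and Ighv1-49 held 2.58 CPM in sham CT04 replicate 2. Ighv12-3 held 3.00 CPM (65 counts) in ADX CT20 replicate 3, 9.93 times its median, while Igkv4-91, the light chain segment that Ighv12-3 is known to pair with in B-1 cells, was at 2.35 CPM there and highest in sham CT12 replicate 2 at 5.12 CPM.

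In ADX CT08 replicate 1, a run of neighbours was high together. Ighv1-66 held 268 counts, Ighv1-67 162, Ighv1-69 238, Ighv8-12 192, the miRNA gene Mir6388 161 and Ighv1-71 168, where their medians over the other 35 libraries were 36, 27, 51, 42, 24 and 24. The segments on either side, Ighv8-11 with 28 and Ighv1-72 with 45 counts, were near their medians of 23 and 32. The counts of Ighv1-67, Mir6388 and Ighv1-71 lay within 7 of each other, so these peaks are not separate observations. The light chain segments Igkv8-24 at 44.6 CPM and Igkv11-125 at 4.96 CPM were also highest in that library. Of 80 light chain segments with a mean count of at least 10, 23 had a highest library of at least 4 times the median.

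**Figure D5:**
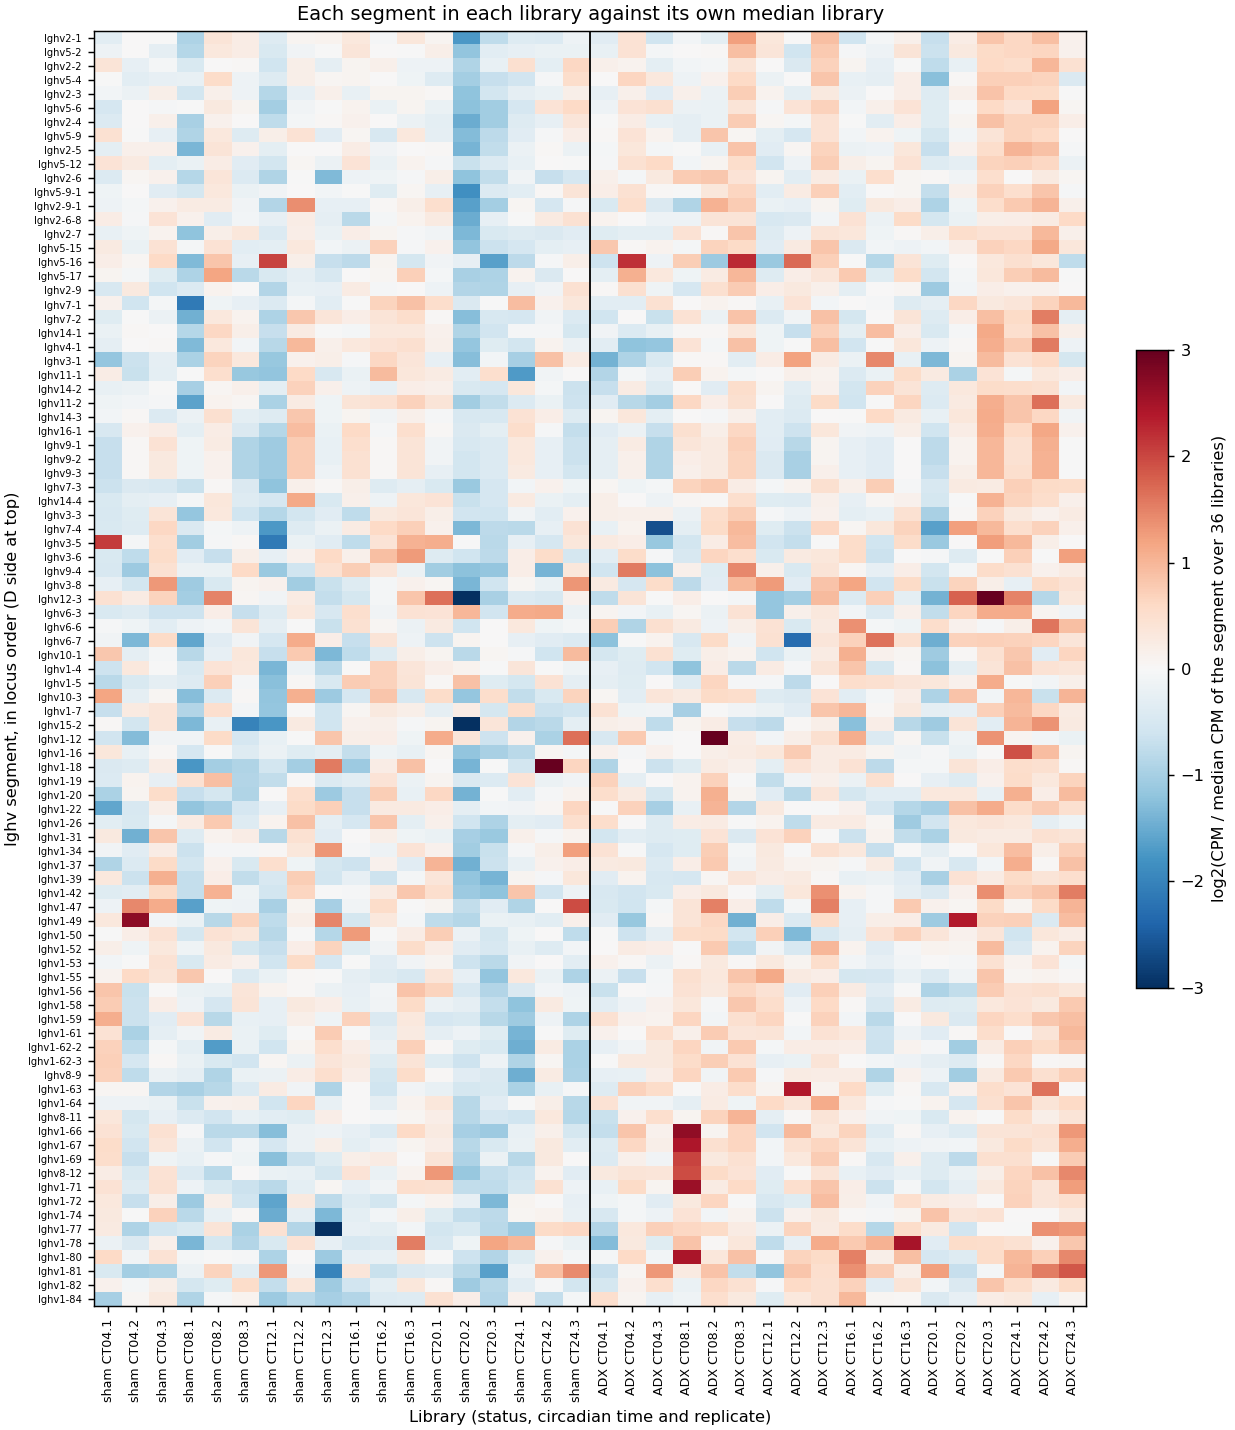
Log2 ratio of the CPM of each of the 91 segments (rows, in locus order with the D side at the top) in each of the 36 libraries (columns) to the segment's median library, from blue (lower) to red (higher). The line divides sham from ADX; sham CT20 replicate 2 is low over most segments, neighbours such as Ighv9-1 to Ighv9-3 share 1 pattern, and single dark cells mark peaks such as Ighv1-12 in ADX CT08 replicate 2.

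Other immunoglobulin genes were compared in the same fit. Of the heavy chain constant genes, 7 of 7 tested were higher in ADX, from 0.16 for Ighg1 to 0.40 for Igha and Ighe, and 1 passed: Ighm rose from 874 ± 129 to 1097 ± 203 CPM (0.33 ± 0.08, adjusted p = 0.0489, edgeR). Between Ighm and Igha lie Ighg3, Ighg1, Ighg2b, Ighg2c and Ighe, with counts of 9.1 to 13.5% of those of Igha. As a description over 36 libraries that share depth and tissue, their log2 levels had a Pearson r with Igha of 0.99 for Ighe, Ighg2c and Ighg3, 0.98 for Ighg2b and 0.87 for Ighg1. Whether they share counts with Igha was not tested. All 4 J segments were positive, with a median of 0.33, and 0 passed. Both light chain constant genes tested were called higher, Igkc (0.35 ± 0.08, adjusted p = 0.0372) and Iglc2 (0.27 ± 0.06, adjusted p = 0.0389) by edgeR. With 1 library left out at a time, the call was kept in 10 of 36 fits for Ighm, 24 for Igkc and 23 for Iglc2.

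Markers of B lineage cells moved in the same direction as the segments, and their part in the result was not tested. Of 15 B lineage genes outside the immunoglobulin loci, such as Cd79a and Ms4a1, 15 were positive with a median log2 fold change of 0.30, and 0 passed (Cd79a at 0.31 ± 0.08, adjusted p = 0.071, edgeR). Their mean log2 level, centred over all libraries, ranged from -0.82 to 0.17 in sham and from -0.25 to 0.52 in ADX. With this level as a covariate, 65 of the 91 segments were positive and the median was 0.12. In that edgeR fit 2 segments were called, Ighv7-3 and Ighv1-63, where 406 of all tested genes were. The level itself differed between the groups, at -0.12 ± 0.25 in sham and 0.12 ± 0.22 in ADX (SD, n = 18 each). This fit therefore cannot tell the B lineage level and the status apart. All 7 genes of the pre-B list, with Rag1, Rag2 and the surrogate light chain gene Vpreb1, were positive with a median of 0.31, and 0 passed.

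Of 11 plasma cell genes 9 were positive with a median of 0.21. Jchain, the joining chain of IgM and IgA polymers, had the largest change of the list and its only call. It rose from 96.6 ± 22.0 to 133 ± 28.8 CPM (0.46 ± 0.10, adjusted p = 0.0376, edgeR), a call kept in 21 of 36 fits that left out 1 library. Xbp1 (-0.05 ± 0.02) and Fkbp11 (-0.09 ± 0.06) were negative, and Prdm1 was at 0.07 ± 0.07 and Derl3 at 0.04 ± 0.05. The plasma cell level ranged from -0.40 to 0.12 in sham and from -0.15 to 0.32 in ADX. The defining plasma cell receptor Tnfrsf17 was near 0, at 0.333 and 0.398 CPM. Of 4 germinal centre genes tested 1 was positive, and of 7 genes that attract or sustain B cells 5 were positive, with 0 called in either list.

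Markers of other blood cells were opposite in sign or flat. All 7 erythroid genes, led by Hbb-bs at 11377 and 10062 CPM in sham and ADX, were negative with a median of -0.17, and all 7 neutrophil genes with a median of -0.19, and 0 passed in either. Of 6 T and NK genes 2 were positive. Skeletal muscle genes were positive in 5 of 5 with a median of 1.83 and 0 called, where the highest ADX library was at a level of 5.14 and the highest sham library at 1.32. The 3 pituitary genes were negative with a median of -0.92. The labelled tissue was represented by 8 of 8 cochlear markers, among them Coch at 4974 CPM in sham, and 2 of them were positive with a median of -0.04.

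The number of called segments moved with single libraries, as did that of all called genes. With 1 of the 36 libraries left out at a time 1 to 7 segments were called, and 15 to 299 genes in all against 162 with every library, with 85 to 90 positive segments and medians of 0.25 to 0.35. Ighv7-3 alone was called without ADX CT24 replicate 1, sham CT04 replicate 2, sham CT12 replicate 3 or sham CT20 replicate 3. None of the segments and 6 of all genes were called without sham CT20 replicates 2 and 3. There, 82 segments were positive with a median of 0.24. These libraries were picked for the lowest Igha, 122 and 132 CPM against a sham median of 398. They are also the lowest in the summed Ighv level, while their Ighm was 848 and 945 CPM against a sham median of 910. Without the 5 libraries with Gh over 50 CPM, 0 segments and 9 genes in all were called, with 90 positive and a median of 0.35.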

How the data were processed

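RNA of cochleae was made into strand-specific mRNA libraries and sequenced as single reads of 100 bases, per the labels' protocols. The submitters' processing notes name STAR 2.4.0i and the genome build mm10. Still not given in the sources used here are the counting program and its annotation. The authors deposited 1 table of raw counts for Ensembl genes, and its gene_length column, deposited by the authors as a score of bases per gene per the file headers, was used only for levels per kb. Of its IDs, 37693 (96.6%) matched GENCODE M21. The column times were 1 h earlier than the labels for 30 of 36 columns. Columns were mapped by status, replicate and the only label within 1 h. Nothing in the labels says that the libraries are separate animals, and p-values therefore cover only the spread among these libraries, which may be technical. Replicate libraries differed beyond counting error (chi-square over df 5.49 to 22.7).

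Counts were fitted in R 4.3.3 with edgeR 4.0.16 (TMM, filterByExpr keeping 22556 genes, glmQLFit and glmQLFTest) as 12 group means with 24 residual degrees of freedom, and as a 24 h cosine per status, adjusted over all genes with a threshold of 0.05. SE is the fold change over the square root of F. CPM are counts scaled by TMM library sizes of the kept genes. Alternatives were DESeq2 1.42.0, its size factors, no filter, the replicate block, a B lineage covariate and libraries left out. Chosen after seeing the data were the interaction test, the counts above the lower neighbour, the column-name times and leaving out sham CT20 replicates 2 and 3. The tests were tried on simulated counts. The segments, lists and removed libraries were chosen with earlier results of these data known. Named segments were those called, the 10 highest and 5 lowest levels, the 4 highest and 4 lowest fold changes, the 6 largest single-library ratios and those nearest the threshold. Segments named as neighbours or for equal counts were chosen after their values were seen. Figures used matplotlib 3.10.9.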

Additional observations from a re-analysis of the deposited data

How the results depend on the processing

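Over the mean of the 6 times, 5 segments were called. In all, 162 genes were called. The segments numbered 9 with DESeq2 (630 genes in all; adding Ighv1-74, Ighv1-84, Ighv1-66 and Ighv1-67), 2 with the B lineage covariate (406 genes), and 3 without the 3 muscle-high libraries ADX CT12 replicate 1, ADX CT16 replicate 2 and ADX CT20 replicate 3 (119 genes). They numbered 0 without the 5 libraries with Gh over 50 CPM (9 genes) and 2 with the counts above the lower neighbour (150 genes). They also numbered 0 without sham CT20 replicates 2 and 3 (6 genes), picked as the libraries of lowest Igha. These are also the lowest in summed Ighv level, so leaving them out lowers the difference by construction. Whether this is why the calls were lost was not tested. The number stayed 5, the same segments, with DESeq2 size factors, no filter and the replicate block. With 1 library left out at a time it was 1 to 7, and 2 without ADX CT04 replicate 3, ADX CT12 replicate 3, ADX CT16 replicate 2 or sham CT08 replicate 3, and 3 without ADX CT08 replicate 3, ADX CT24 replicate 2, sham CT04 replicate 1, sham CT16 replicates 2 or 3, sham CT20 replicate 2 or sham CT24 replicate 2. The cause of these changes in number was not tested.

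At single times DESeq2 called 1 segment against 0, at CT20, where it called 0.776% of all genes. Leaving out 1 library gave 0 to 1, and the fits that called 1 called 0.00443 to 0.607% of all genes. For rhythm in sham, DESeq2 called 2 against 0 (18.4% of all genes). Without sham CT20 replicates 2 and 3, 1 was called (Ighv7-1), where 17.1% of all genes were. With the counts above the lower neighbour 1 was called (Ighv7-1), where 16% of all genes were. With 1 library left out it was 0 to 2, and the fits that called any segment called 13.5 to 18.6% of all genes. For rhythm in ADX, 1 was called by DESeq2 (11.6% of all genes) and 1 without the muscle-high libraries (8.23%). Likewise 1 was called without sham CT20 replicates 2 and 3 (9.72%) and 1 with the times of the column names (9.7%). With the counts above the lower neighbour, where such counts are near 0 in many libraries, 3 were called (9.36%). With 1 library left out it was 0 to 2, and the fits that called any segment called 6.65 to 10.8% of all genes. The rhythm difference and the interaction stayed at 0 throughout.

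The fold change of Ighv1-81 turned to -0.18 with the counts above the lower neighbour. That of Ighv1-18 turned to 0.04 and that of Ighv1-4 to 0.04 without the Gh libraries, and with 1 library left out they ranged from -0.17 to 0.18 and from -0.10 to 0.05. The replicate numbers did not pair the samples: of 18 pairs of ADX and sham libraries with the same number, 1 had correlated deviations over 0.1 (-0.103 to 0.112). Under the replicate block Ighm lost its call (adjusted p = 0.0531, edgeR), and 5 segments were called. A threshold of 1 on the mean count would give 107 segments and one of 50 would give 35. At a median mean count of 38.1, the median spread between libraries beyond counting error was 28.1%.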
